A study of Vitis vinifera with 36 samples.

Results

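The comparison described here is that of the bud sport ‘Nantaihutezao’ with its parent ‘Summer Black’ at the S8 stage, 21 days after veraison. The members are the 6 libraries that the labels give as the 3 replicates of each cultivar at S8, of 36 libraries in all, and the comparison runs over every gene of the deposited table and its annotation columns. The 36 libraries cover both cultivars at 6 stages, with 7 days between samplings, from S5 at veraison to S10 at ripening. A bud sport is a branch that arose by somatic mutation, and ‘Nantaihutezao’ was propagated from such a branch of ‘Summer Black’ and ripens earlier. The labels call the parent ‘Sanbenti’ and the bud sport ‘11-06-25’, and the names used here follow the study, matched by role. Both cultivars were untreated vines of 3 years, grown in a plastic film greenhouse in Huzhou, Zhejiang. The mutation behind the bud sport is not given in the sources used here. The labels name berries as the organ, whereas the study names the pericarp. Berries were taken from 2 clusters at each time, and nothing in the labels says that the replicates came from separate vines, so p-values measure the spread between these samples only. As these are bulk samples, fewer cells of a type and less RNA per cell cannot be told apart.

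Ripening of the grape berry is a change of programme. Photosynthesis and cell division recede, sugars and anthocyanins build up in vacuoles, and cell walls are loosened. Pathogenesis-related proteins, above all chitinases and thaumatin-like proteins, become the main soluble proteins of the ripe berry. Phenylalanine feeds stilbenes such as resveratrol, flavonoids such as the anthocyanins, and monolignols and coumarins, through shared first steps.

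The S8 libraries held between 18930991 and 19879707 counts each, and 8246 of the 27751 genes in the table had no count in any of them. Each S8 library correlated best with its own group, with r of at least 0.9926 across genes, and its nearest library of another group was one of the same cultivar at S7. On the first principal component, which held 71.2% of the variance, the cultivars separated. On the second, which held 10.6%, replicate a of ‘Summer Black’ lay at -18.94 and the replicates b and c at 9.22 and 12.48. Set against the mean of the 2 other ‘Summer Black’ libraries on the scale of log2(CPM + 0.5), the median gene of that library differed by -0.32 among the thaumatin-like proteins, -0.29 among the xyloglucan endotransglucosylases, 0.29 among the small heat shock proteins and 0.25 among the flavonoid 3',5'-hydroxylases. Many results that move with this library are given with and without it, but some gene values and list counts are given only with it.

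Expression is given as CPM, the count of a gene scaled to a common normalised library size, and a gene was called when its absolute log2 fold change (log2FC, ‘Nantaihutezao’ over ‘Summer Black’) was above 1 and its false discovery rate (FDR, Benjamini-Hochberg, edgeR's quasi-likelihood test) was below 0.05. Of 15259 genes with enough reads to be tested, 413 (2.71%) were higher and 573 (3.76%) were lower in ‘Nantaihutezao’. A gene with too few reads in one cultivar was tested only if the other had enough, so its direction follows from the filter. Leaving out replicate a of ‘Summer Black’, the counts were 436 and 534. More lower genes than higher genes were called, but the larger changes were on the higher side, where 64 genes were more than 8-fold higher and 21 were more than 8-fold lower. At an FDR below 0.05 with no limit on the fold change, 5157 genes differed, 2479 higher and 2678 lower, and the median log2FC of all tested genes was 0.0044. The groups did not overlap in 982 of the 986 called genes. With 3 libraries a group, both thresholds leave little room for overlap, so its absence adds little to a call, here and below. When the fold change itself was tested against 1 on the log2 scale (glmTreat), 169 genes were higher and 168 were lower.

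**Figure D1:**
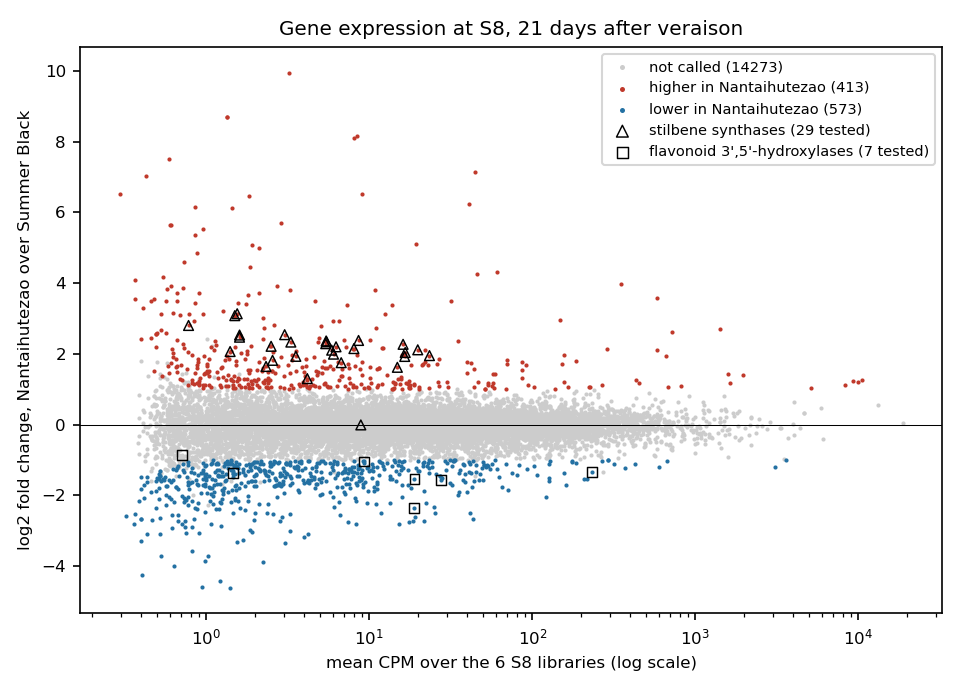
Each point is one of the 15259 tested genes at S8, with its mean CPM over the 6 libraries (log axis) against its log2FC (‘Nantaihutezao’ over ‘Summer Black’). Of the genes called, 413 lie above 1 and 573 below -1, with the stilbene synthases (triangles) at a median of 2.15 and the flavonoid 3',5'-hydroxylases (squares) at -1.35.

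Of 24 broad eggNOG classes, that of secondary metabolites held the largest share of higher genes. In it, 384 genes were tested, and 15.9% were higher and 10.7% were lower in ‘Nantaihutezao’, against 2.71% and 3.76% over all genes. The COG class of the same name, with 289 tested genes, had the opposite balance, with 6.23% higher and 11.8% lower. In the class of lipid transport and metabolism, 2.13% of 376 genes were higher and 6.65% were lower. In the class of translation and ribosomal structure, 1 of 547 genes was higher and none was lower. In RNA processing, none of 471 genes was higher and 2 were lower. Over 7 gene lists that cover ribosome, proteasome, spliceosome, citrate cycle, DNA replication, histones and cellulose synthases, none of 588 tested genes was called by edgeR or by DESeq2, although 224 had an unadjusted p below 0.05, 101 higher and 123 lower. Their log2FC values lay between -0.96 and 0.83, and no list held more than 1 called gene in any refit without 1 library.

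Of 92 KEGG pathways with at least 15 tested genes, 27 held no called gene. The 6 pathways with the largest share of higher genes were flavonoid biosynthesis (52.5% of 59), circadian rhythm (49.1% of 57), phenylalanine metabolism (23.6% of 55), phenylpropanoid biosynthesis (20.3% of 69), isoquinoline alkaloid biosynthesis (11.1% of 18) and ubiquinone and other terpenoid-quinone biosynthesis (10.7% of 28). Stilbene synthase shares its orthology with chalcone synthase, so 28 of the 31 higher genes of flavonoid biosynthesis and all 28 of circadian rhythm were stilbene synthases. Without them, flavonoid biosynthesis had 3 higher and 7 lower genes of 30, and circadian rhythm had none higher and 1 lower of 28. Phenylalanine metabolism had 13 higher genes, 7 of them phenylalanine ammonia-lyases. The 2 higher genes of isoquinoline alkaloid biosynthesis were among the same 13: VIT_17s0000g09100, a primary amine oxidase, and VIT_18s0001g04860, an aminotransferase. Of the 3 higher genes of ubiquinone and other terpenoid-quinone biosynthesis, VIT_11s0065g00350 and VIT_02s0109g00250 were also among the 13. Phenylpropanoid biosynthesis had 14 higher genes, which included the same 7 ammonia-lyases, and 7 higher of 58 without that enzyme. The amine oxidase, which is outside the rule for named genes and was chosen after its value was seen, had 32.3, 32.1 and 31.3 CPM in ‘Nantaihutezao’ and 11.3, 8.55 and 9.9 CPM in ‘Summer Black’, a log2FC of 1.68 (SE 0.098, FDR 3.46e-07).

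The 6 pathways with the largest share of lower genes were photosynthesis antenna proteins (20% of 15), nitrogen metabolism (17.4% of 23), carotenoid biosynthesis (16% of 25), glutathione metabolism (14.1% of 71), fatty acid degradation (13.5% of 37) and inositol phosphate metabolism (13.2% of 38). These rested on 3, 4, 4, 10, 5 and 5 called genes. Higher genes were rare in the same pathways, with none in the first 3 and 1 in each of the others. The lower genes of fatty acid degradation were alcohol dehydrogenases (VIT_04s0044g01120, VIT_06s0004g04330 and VIT_18s0001g15450) and long-chain acyl-CoA synthetases (VIT_03s0063g01880 and VIT_07s0005g01790) by their annotation. No other enzyme of that pathway was called lower.

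**Figure D2:**
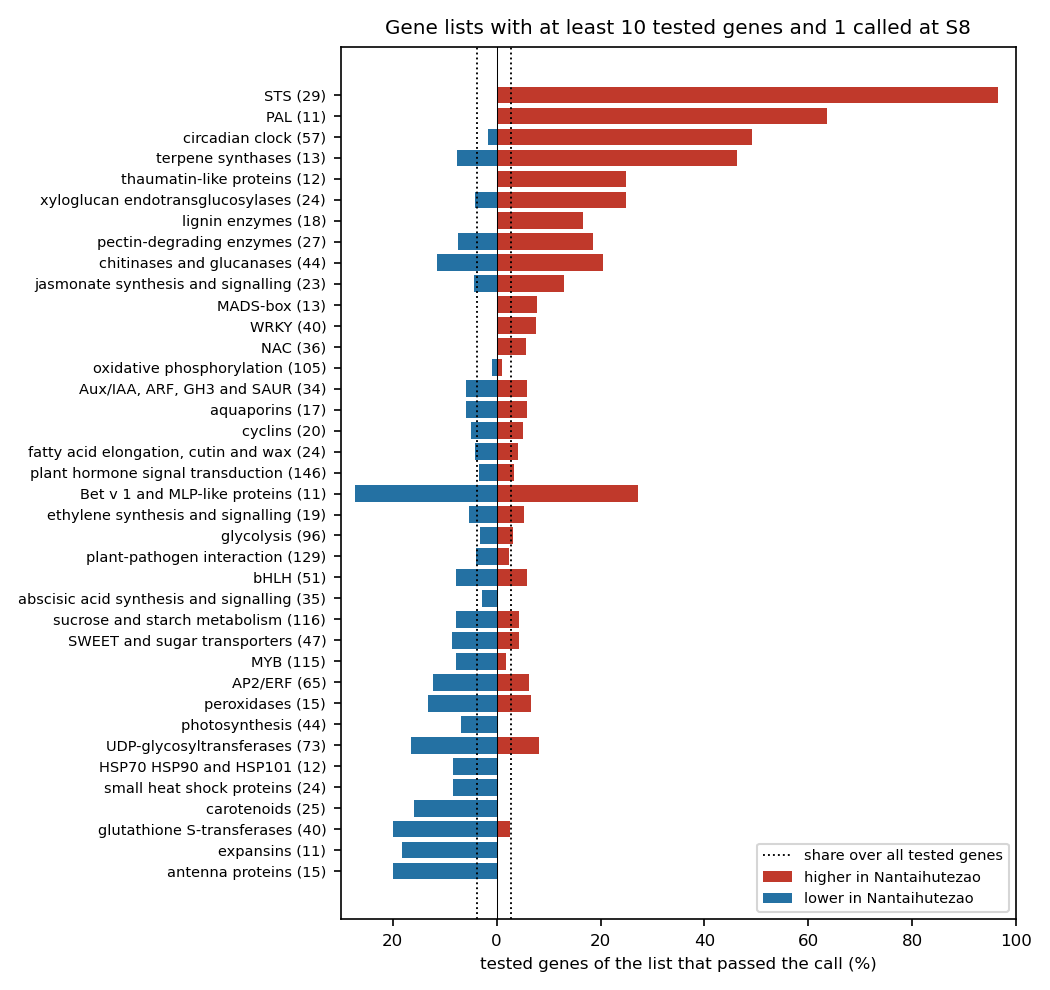
Bars give the share of tested genes called higher (right) and lower (left) in ‘Nantaihutezao’ at S8 for each gene list with at least 10 tested genes (number in brackets) and 1 called gene. The dotted lines are the shares over all genes, 2.71% and 3.76%, and the bar of the circadian clock list, at 49.1%, consists of the same 28 stilbene synthases as the first bar.

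Phenylalanine ammonia-lyase (PAL) opens the phenylpropanoid pathway, and cinnamate 4-hydroxylase (C4H) and 4-coumarate:CoA ligase (4CL) make its activated product. Of 17 PAL genes, 11 had enough reads to be tested, and 7 were higher in ‘Nantaihutezao’ and none was lower. The 7 were all copies on chromosome 16 with few reads. Some, such as VIT_16s0039g01240 (0.0864 CPM) and VIT_16s0039g01360 (0.328 CPM), had too few ‘Summer Black’ reads for the filter. They were tested only because ‘Nantaihutezao’ had more, so their direction follows from the filter. The pair with the most reads among the 7 was VIT_16s0039g01100, with 21.3, 23.7 and 22 CPM in ‘Nantaihutezao’ and 8.93, 9.33 and 9.02 CPM in ‘Summer Black’, and VIT_16s0039g01120, with 18.4, 15.1 and 18.2 CPM in ‘Nantaihutezao’ and 5.58, 5.08 and 6.53 CPM in ‘Summer Black’. Their log2FC values were 1.30 (SE 0.088, FDR 1.03e-06) and 1.59 (SE 0.13, FDR 4.01e-06), and neither gene's groups overlapped. The copies with most of the PAL reads behaved differently. VIT_13s0019g04460 had 249.9 ± 9.84 CPM in ‘Nantaihutezao’ and 219 ± 8.15 CPM in ‘Summer Black’ (SD, n = 3) and VIT_06s0004g02620 had 206 ± 3.76 CPM in ‘Nantaihutezao’ and 258 ± 13.2 CPM in ‘Summer Black’, with log2FC values of 0.19 (SE 0.052, FDR 0.0147) and -0.33 (SE 0.052, FDR 0.000612). Summed over all 17 genes, PAL had 565.1, 545.3 and 579.5 CPM in ‘Nantaihutezao’ and 533, 524.4 and 515.1 CPM in ‘Summer Black’, a log2 ratio of the means of 0.10. The copies that were called thus made up a small part of the PAL transcripts, whose sum was close between the cultivars, although its groups did not overlap.

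Of the other early steps, 1 of 3 C4H genes and 1 of 4 tested 4CL genes were higher. VIT_11s0065g00350, a C4H, had 69, 72.8 and 79.5 CPM in ‘Nantaihutezao’ and 33.2, 34.9 and 33 CPM in ‘Summer Black’, a log2FC of 1.13 (SE 0.067, FDR 3.99e-07). The C4H with the most reads, VIT_06s0004g08150, had 217 ± 16.6 CPM in ‘Nantaihutezao’ and 206 ± 16.9 CPM in ‘Summer Black’, and the 95% interval of its log2FC ran from -0.08 to 0.23. The study also measured the C4H with the fewest reads by qRT-PCR at S8. This gene, VIT_11s0078g00290, had 1.66, 1.29 and 1.5 CPM in ‘Nantaihutezao’ and 0.516, 1.3 and 0.777 CPM in ‘Summer Black’. Its groups overlapped, its log2FC was 0.78 (SE 0.36, FDR 0.117), and the 95% interval ran from just below 0 to 1.56. Among the 4CL genes, the called one was VIT_02s0109g00250, at 3.3 ± 0.506 CPM in ‘Nantaihutezao’, while VIT_11s0052g01090, which had the most reads, had a log2FC of 0.59 (SE 0.081, FDR 0.000221), under the fold change threshold.

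Stilbene synthase (STS) joins the activated product with malonyl units to resveratrol. Of 33 STS genes, 29 were tested, and 28 (96.6%, against 2.71% over all genes) were higher in ‘Nantaihutezao’. The 29th, VIT_16s0022g01070, matches a stilbene synthase in Swiss-Prot but is treated as a chalcone synthase by the study, and had 8.85 ± 1.14 CPM in ‘Nantaihutezao’ and 8.88 ± 2.08 CPM in ‘Summer Black’. Summed over the list, STS transcripts reached 300.8, 338 and 331 CPM in ‘Nantaihutezao’ and 86.8, 88.1 and 78.2 CPM in ‘Summer Black’. All ‘Nantaihutezao’ libraries were above all ‘Summer Black’ libraries, and the log2 ratio of the means was 1.94. The gene with the most reads, VIT_16s0100g01030, had 34.5, 39.1 and 37.9 CPM in ‘Nantaihutezao’ and 9.71, 9.22 and 9.85 CPM in ‘Summer Black’, a log2FC of 1.95 (SE 0.083, FDR 3.37e-08). It was followed by VIT_16s0100g00920, with 28, 33.8 and 34.9 CPM in ‘Nantaihutezao’ and 6.56, 8.19 and 7.51 CPM in ‘Summer Black’, a log2FC of 2.12 (SE 0.11, FDR 1.91e-07). Per length of transcript, the deposited values of these genes averaged 29.3 and 29.8 FPKM in ‘Nantaihutezao’ and 7.74 and 7.09 FPKM in ‘Summer Black’. STS genes are close copies, so reads could be split among them by the counting, and single-copy values are less certain than the sum. Tested against the threshold itself, 25 of the 29 were called. Some STS genes, such as VIT_16s0100g00960 (0.19 CPM) and VIT_16s0100g01040 (0.311 CPM), had too few ‘Summer Black’ reads for the filter. They were tested only because ‘Nantaihutezao’ had more, so their direction follows from the filter. The sum covers all 33 genes and does not depend on it.

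Chalcone synthase (CHS) takes the same substrates into the flavonoids. None of the 3 tested CHS genes was called by edgeR or DESeq2, and 1 had an unadjusted p below 0.05. That was VIT_05s0136g00260, with 5243 ± 268 CPM in ‘Nantaihutezao’ and 6937 ± 29.6 CPM in ‘Summer Black’, a log2FC of -0.40 (SE 0.05, FDR 9.4e-05). None of the 4 tested genes of chalcone isomerase, flavanone 3-hydroxylase (F3H) and flavonoid 3'-hydroxylase (F3'H) was called either, with 3 at an unadjusted p below 0.05, and their log2FC values lay between -0.58 and 0.30.

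Of the flavonoid steps, the one with the most lower calls was flavonoid 3',5'-hydroxylase (F3'5'H), which adds the third hydroxyl group of the blue delphinidin-type anthocyanins. Of 12 F3'5'H genes, 7 were tested, and 6 (85.7%, against 3.76% over all genes) were lower in ‘Nantaihutezao’. None was higher, and the median log2FC was -1.35. The groups of each of the 6 did not overlap. VIT_06s0009g02840 held most of the reads, with 143, 119 and 134 CPM in ‘Nantaihutezao’ and 372, 333 and 292 CPM in ‘Summer Black’, a log2FC of -1.33 (SE 0.089, FDR 9.2e-07). VIT_06s0009g02810, chosen after its value was seen, had the largest fall, with 5.82, 5.44 and 7.2 CPM in ‘Nantaihutezao’ and 29.3, 33.5 and 31.2 CPM in ‘Summer Black’, a log2FC of -2.35 (SE 0.11, FDR 6.78e-08). Summed over the list, F3'5'H had 177.8, 154.4 and 176.8 CPM in ‘Nantaihutezao’ and 497.8, 445.9 and 402.5 CPM in ‘Summer Black’, a log2 ratio of the means of -1.40. Leaving out replicate a of ‘Summer Black’, 5 of these genes were lower. Tested against the threshold itself, 4 were.

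The study measured VIT_06s0009g03010 (F3'5'H) and VIT_16s0039g01280 (PAL) by qRT-PCR at S8, with primers that share runs of bases with those of other copies. The forward primers, 5' to 3', are shown with a second copy of each enzyme for which the study also designed primers, and capitals mark the longest run of bases that both primers of a pair share.
VIT_06s0009g03010: GAGTTCAAGGACATGGTGGTGGAG
VIT_06s0009g02880: GAGTTCAAGGACATGGTGGTGGAG
VIT_16s0039g01280: gaagagcttctgCGTGAGTGATCC
VIT_16s0039g01170: CGTGAGTGATCCgctgaactgg
The F3'5'H pair on chromosome 6 has one forward primer of 24 bases in common, and the PAL pair on chromosome 16 shares 12 bases of the forward primer and the whole second primer. The second primers of the F3'5'H pair overlap in part. The 12 shared bases end one PAL primer and begin the other, so the primers cover shifted stretches. Their other bases therefore do not show differences between the copies. In the counts, VIT_06s0009g03010 had 12.4, 13.9 and 15.3 CPM in ‘Nantaihutezao’ and 48.1, 38.7 and 36.2 CPM in ‘Summer Black’, a log2FC of -1.56 (SE 0.12, FDR 2.29e-06), while its partner VIT_06s0009g02880 had 0.812 ± 0.0311 CPM in ‘Nantaihutezao’ and 2.09 ± 0.584 CPM in ‘Summer Black’ and a log2FC of -1.35 (SE 0.3, FDR 0.00546). VIT_16s0039g01280 had 1.87, 1.45 and 3.73 CPM in ‘Nantaihutezao’ and 0.775, 0.777 and 0.466 CPM in ‘Summer Black’, a log2FC of 1.79 (SE 0.41, FDR 0.00592), and VIT_16s0039g01170 had 10.1 ± 1.33 CPM in ‘Nantaihutezao’ and 3.38 ± 0.831 CPM in ‘Summer Black’ with a log2FC of 1.58 (SE 0.18, FDR 5.24e-05). Within each pair, both copies changed in the same direction. How reads were shared between such copies was not tested.

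Late in the pathway, dihydroflavonol reductase, anthocyanidin synthase and UDP-glucose:flavonoid glucosyltransferase (UFGT) complete the anthocyanins. VIT_16s0039g02230, a UFGT and a marker used for coloured skin, had 552, 538 and 580.5 CPM in ‘Nantaihutezao’ and 896, 787 and 811 CPM in ‘Summer Black’. It was lower in every ‘Nantaihutezao’ library, a log2FC of -0.58 (SE 0.059, FDR 2.41e-05), without passing the fold change threshold. Of the 4 tested genes of this group, only VIT_11s0052g01600 was called, at 2.02 ± 0.458 CPM in ‘Nantaihutezao’ and 0.983 ± 0.371 CPM in ‘Summer Black’, and it lost its call in 4 of the 6 refits without 1 library, with FDR values up to 0.116. In the branch to flavonols and tannins, the flavonol synthase VIT_18s0001g03430 had 14.2, 12.9 and 14.6 CPM in ‘Nantaihutezao’ and 2.74, 5.03 and 4.51 CPM in ‘Summer Black’, a log2FC of 1.76 (SE 0.18, FDR 2.25e-05). The leucoanthocyanidin reductase VIT_01s0011g02960, which leads to tannin units, was lower, with 1.28 ± 0.42 CPM in ‘Nantaihutezao’ and 4.18 ± 0.546 CPM in ‘Summer Black’, a log2FC of -1.70 (SE 0.25, FDR 0.00034).

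**Figure D3:**
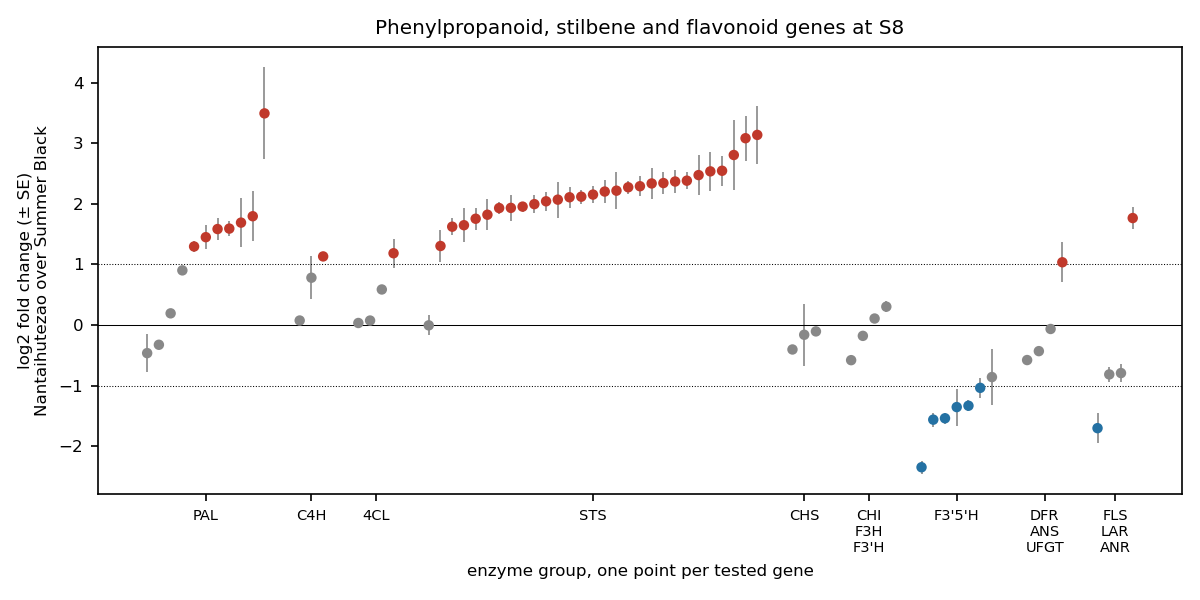
Log2FC values at S8 with standard errors of every tested gene of 9 enzyme groups, in the order of the pathway and sorted within a group, with higher calls in red, lower calls in blue and uncalled genes in grey. In the STS group, 28 of 29 genes lie above 1, while 6 of 7 F3'5'H genes lie below -1 and no CHS gene is called.

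Methylation and coumarin steps rose strongly in single genes. VIT_03s0063g01330, matched to feruloyl-CoA ortho-hydroxylase 2, which in Arabidopsis makes the precursor of the coumarin scopoletin, had 649, 631 and 703 CPM in ‘Nantaihutezao’ and 36.6, 44.2 and 44.2 CPM in ‘Summer Black’, a log2FC of 3.99 (SE 0.082, FDR 1.38e-10). This made it 15.9-fold higher. Its substrate comes from caffeoyl-CoA O-methyltransferase, and VIT_07s0031g00350 of that name had 277, 292 and 298 CPM in ‘Nantaihutezao’ and 81.4, 80.7 and 85.2 CPM in ‘Summer Black’, a log2FC of 1.81 (SE 0.052, FDR 1.45e-09). VIT_02s0025g02920, a caffeic acid O-methyltransferase (COMT1), had 80.7, 84.4 and 92.5 CPM in ‘Nantaihutezao’ and 33.2, 31.8 and 31.2 CPM in ‘Summer Black’, a log2FC of 1.42 (SE 0.066, FDR 6.23e-08). No value of one cultivar reached into the range of the other in these genes. Of 18 tested lignin enzymes, 3 (16.7%, against 2.71% over all genes) were higher. None was lower by edgeR or DESeq2, with 3 lower at an unadjusted p below 0.05. Without replicate c of either cultivar, 2 were lower, and without replicate b of ‘Nantaihutezao’ or replicate a or b of ‘Summer Black’, 1 was.

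The enzymes that couple monolignols changed in both directions. Among 6 tested laccases, VIT_18s0164g00100 (LAC14) fell, with 8.94, 9.58 and 9.48 CPM in ‘Nantaihutezao’ and 38.5, 30.8 and 33.3 CPM in ‘Summer Black’, a log2FC of -1.87 (SE 0.099, FDR 1.6e-07). A second gene matched to LAC14, VIT_18s0001g00680, rose from 0.19 to 1.71 CPM, and VIT_18s0122g00390 (laccase 15) rose by 1.15 on the log2 scale. In all, 2 laccases (33.3%) were higher and 1 (16.7%) lower, against 2.71% and 3.76% over all genes. Without replicate a of ‘Summer Black’, 4 laccases were higher. Of 15 tested peroxidases, VIT_12s0055g01020 was higher and VIT_08s0058g00980 and VIT_11s0016g05320 were lower, all below 4 CPM, and the first and the last lost their calls in 5 and 4 of the 6 refits without 1 library. That made 6.67% of the peroxidases higher and 13.3% lower.

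Terpene synthases make the volatile and resinous terpenes. Of 83 such genes, 33 had a count at S8 and 13 were tested, and 6 were higher and 1 was lower in ‘Nantaihutezao’. These were 46.2% and 7.69% of the tested ones, against 2.71% and 3.76% over all genes. VIT_12s0134g00030, matched to terpene synthase 12, had 88.7, 88.8 and 88.4 CPM in ‘Nantaihutezao’ and 0.31, 0.726 and 0.829 CPM in ‘Summer Black’, a log2FC of 7.14 (SE 0.14, FDR 1.31e-10). VIT_19s0014g04930, a germacrene D synthase, which makes a sesquiterpene, had 108, 122 and 115 CPM in ‘Nantaihutezao’ and 6.15, 5.34 and 5.91 CPM in ‘Summer Black’, a log2FC of 4.31 (SE 0.082, FDR 1.31e-10). Both genes stood at a low level in every ‘Summer Black’ library and far above it in every ‘Nantaihutezao’ library. The lower one, VIT_00s0385g00020, a nerolidol synthase, had under 1 CPM in both cultivars (0.19 ± 0.131 CPM in ‘Nantaihutezao’ and 0.638 ± 0.129 CPM in ‘Summer Black’) and was not called with DESeq2 (FDR 0.0755) or in 5 of the 6 refits without 1 library.

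Glycosyltransferases and a regulator were among the steepest changes. VIT_04s0023g01290, matched to anthocyanidin 3-O-glucosyltransferase 5 (GT5) and by KEGG to a coniferyl alcohol glucosyltransferase, had 80.6, 76.8 and 86.3 CPM in ‘Nantaihutezao’ and 0.671, 1.04 and 1.5 CPM in ‘Summer Black’, a log2FC of 6.24 (SE 0.14, FDR 4e-10). VIT_14s0066g01090, matched to MYB305, a MYB factor known from flowers of other species, had 37.3, 40.4 and 35.6 CPM in ‘Nantaihutezao’ and 0.775, 1.24 and 1.24 CPM in ‘Summer Black’, a log2FC of 5.11 (SE 0.14, FDR 1.12e-09). In both genes, the highest ‘Summer Black’ library stayed below 2 CPM. Over the family of 73 tested UDP-glycosyltransferases, however, 6 (8.22%) were higher and 12 (16.4%) lower. Both shares were above those over all genes, 2.71% and 3.76%. The lower count was 5 without replicate a of ‘Summer Black’ and 6 without replicate b of ‘Nantaihutezao’. VIT_03s0180g00200 (cinnamate glucosyltransferase, GT2) had the most reads of the higher ones, with 922 ± 34.8 CPM in ‘Nantaihutezao’ and 436 ± 7.01 CPM in ‘Summer Black’, a log2FC of 1.08 (SE 0.049, FDR 5.69e-08). Among the lower ones, VIT_14s0068g00500 (UGT83A1) had 15.5 ± 0.476 CPM in ‘Nantaihutezao’ and 31.1 ± 0.976 CPM in ‘Summer Black’ and VIT_09s0002g06590 had 31.4 ± 1.3 CPM in ‘Nantaihutezao’ and 69.4 ± 17.8 CPM in ‘Summer Black’, with log2FC values of -1.01 (SE 0.073, FDR 1.81e-06) and -1.14 (SE 0.14, FDR 0.000104). The first stood at -0.98 to -1 without replicate b of ‘Nantaihutezao’ or replicate a or b of ‘Summer Black’, and the second at -0.92 without replicate a of ‘Summer Black’.

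Several genes at the head of the ranking were nearly silent in ‘Summer Black’. VIT_05s0094g00740, an acyl-ACP desaturase, which puts a double bond into fatty acids, had 5.4, 7.2 and 6.58 CPM in ‘Nantaihutezao’ and 0, 0 and 0 CPM in ‘Summer Black’. Against a floor of 3 counts over the ‘Summer Black’ group, it was at least 124-fold higher. VIT_09s0002g09270, matched to the cytochrome P450 CYP82C4, had 13.8, 15.5 and 18.9 CPM in ‘Nantaihutezao’ and 0.0516, 0.104 and 0 CPM in ‘Summer Black’, which rests on 3 counts in ‘Summer Black’. The ratio was 310.2, with an exact 95% counting interval from 106 to 1507 that covers counting error only. VIT_15s0046g01600, a chitinase of the lysozyme type, had 328 counts in ‘Nantaihutezao’ and 6 in ‘Summer Black’, a ratio of 54.8 (counting interval 24.9 to 150.3). VIT_16s0100g00250, matched to HOTHEAD, which in Arabidopsis takes part in cuticle formation, had 19.2, 21.1 and 20.4 CPM in ‘Nantaihutezao’ and 1.03, 1.87 and 1.4 CPM in ‘Summer Black’, a log2FC of 3.81 (SE 0.16, FDR 3.37e-08).

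Defence proteins of the ripe berry included some of the most abundant called genes. Of 44 tested chitinases and glucanases, 9 (20.5%) were higher and 5 (11.4%) lower, against 2.71% and 3.76% over all genes. Of 12 tested thaumatin-like proteins, 3 (25%) were higher and none lower by edgeR or DESeq2, with 1 lower at an unadjusted p below 0.05. Without replicate a of ‘Summer Black’, 10 chitinases and glucanases and 2 thaumatin-like proteins were higher. VIT_05s0094g00340 (chitinase 5) had 14956, 15145 and 14864 CPM in ‘Nantaihutezao’ and 5143, 6620 and 6834 CPM in ‘Summer Black’, a log2FC of 1.27 (SE 0.089, FDR 1.31e-06). VIT_08s0007g06040, a glucanase, had 2334, 2265 and 2370 CPM in ‘Nantaihutezao’ and 708, 924 and 952 CPM in ‘Summer Black’, a log2FC of 1.43 (SE 0.094, FDR 8.15e-07). The thaumatin-like gene VIT_02s0025g04310 had 1200, 1162 and 1341 CPM in ‘Nantaihutezao’ and 129, 206 and 272 CPM in ‘Summer Black’, a log2FC of 2.61 (SE 0.2, FDR 3.09e-06). In these 3 genes, all ‘Nantaihutezao’ libraries were above all ‘Summer Black’ libraries, and replicate a was the lowest of the ‘Summer Black’ libraries. A neighbour, VIT_02s0025g04330, had 1154, 1063 and 1127 CPM in ‘Nantaihutezao’ and 322, 624 and 628 CPM in ‘Summer Black’, and its log2FC of 1.09 was 0.83 without replicate a of ‘Summer Black’. On the lower side, VIT_00s0780g00020, another glucanase, had 1.94 ± 0.303 CPM in ‘Nantaihutezao’ and 11.3 ± 1.49 CPM in ‘Summer Black’, and VIT_15s0046g01570, an acidic endochitinase, had 5.06 ± 0.275 CPM in ‘Nantaihutezao’ and 12 ± 1.92 CPM in ‘Summer Black’.

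Bet v 1-type and MLP-like proteins, small proteins with a ligand pocket that include major fruit allergens, were split, with 3 higher and 3 lower of 11. Each was 27.3% of the list, against 2.71% higher and 3.76% lower over all genes. VIT_01s0011g05180 (MLP31) had 916, 1009 and 925 CPM in ‘Nantaihutezao’ and 256, 205 and 198 CPM in ‘Summer Black’, a log2FC of 2.11 (SE 0.09, FDR 3.51e-08). VIT_05s0077g01670, matched to the apricot allergen Pru ar 1, went the other way, with 11.7, 12.8 and 12.9 CPM in ‘Nantaihutezao’ and 82.6, 63.3 and 64.7 CPM in ‘Summer Black’, a log2FC of -2.50 (SE 0.11, FDR 4.25e-08). Its relative VIT_05s0077g01560, matched to the cherry allergen Pru av 1, rose from 0.328 ± 0.0302 to 5.08 ± 0.492 CPM.

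Among the 95 tested genes with a mean of at least 1000 CPM, 9 (9.47%) were higher and 2 (2.11%) were lower in ‘Nantaihutezao’. Over all genes, the shares were 2.71% and 3.76%. This group of abundant genes was looked at after the values were seen. Together, the 9 higher genes took between 6.75% and 6.95% of the counts of each ‘Nantaihutezao’ library and between 2.46% and 3.35% of each ‘Summer Black’ library. These 9 genes were picked as higher in the same libraries, so the direction follows from the choice and only the size is described. Besides chitinase 5 and VIT_08s0007g06040, they included a second glucanase, VIT_05s0077g01150, with 2455, 2290 and 2602 CPM in ‘Nantaihutezao’ and 310.4, 406 and 419 CPM in ‘Summer Black’, a log2FC of 2.69 (SE 0.1, FDR 1.65e-08). They also held VIT_18s0001g09460 (snakin-1, an antimicrobial peptide), with 2262 ± 18.2 CPM in ‘Nantaihutezao’ and 999 ± 202 CPM in ‘Summer Black’, and the cytochrome P450 VIT_17s0000g05110 (CYP78A5), with 2840 ± 85.1 CPM in ‘Nantaihutezao’ and 1064 ± 97.8 CPM in ‘Summer Black’. The other 4 encoded glycine-rich or proline-rich proteins. VIT_19s0090g01350, a glycine-rich protein, had 13848 ± 343 CPM in ‘Nantaihutezao’ and 6014 ± 344 CPM in ‘Summer Black’, and VIT_05s0049g00760, a proline-rich extensin-like protein described as ripening-induced, had 13405, 11765 and 13696 CPM in ‘Nantaihutezao’ and 3717, 6367 and 6332 CPM in ‘Summer Black’. VIT_05s0049g00570, matched to early nodulin-75, had a log2FC of 1.04, which was 0.73 without replicate a of ‘Summer Black’. The 2 lower genes were a glutathione S-transferase, described further on, and VIT_04s0008g05010, matched to the kiwi allergen Act d 3, with 1851, 1768 and 1957 CPM in ‘Nantaihutezao’ and 3782, 4446 and 4627 CPM in ‘Summer Black’, a log2FC of -1.20 (SE 0.074, FDR 5.04e-07).

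**Figure D4:**
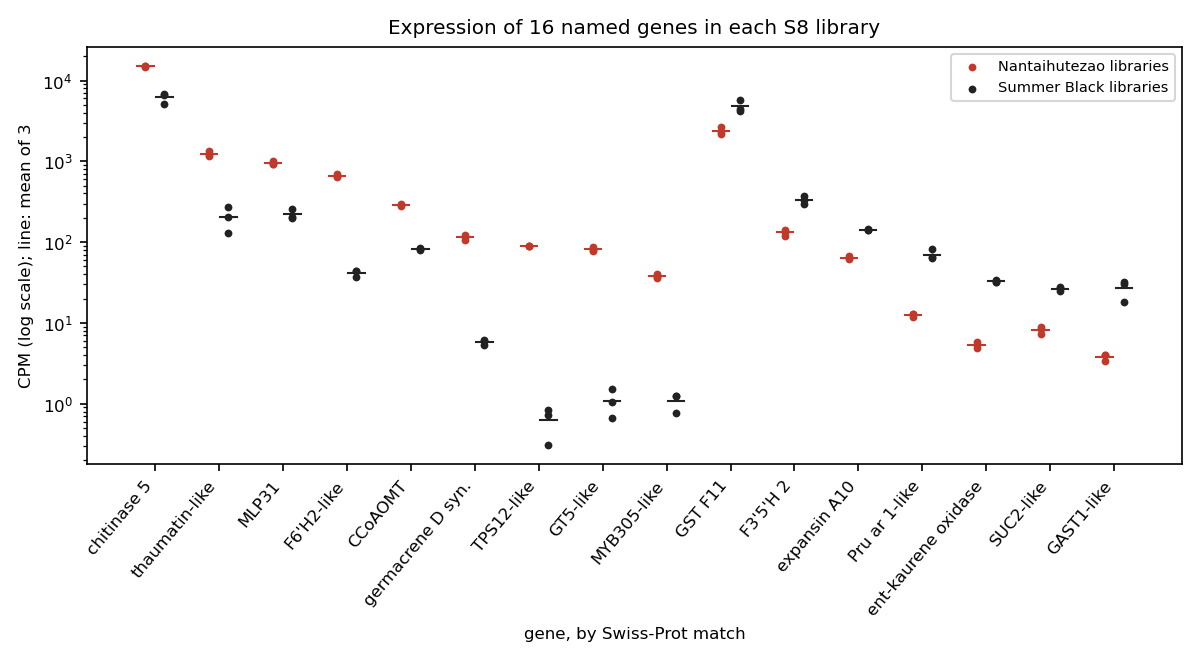
CPM of 16 named genes (log axis) in each of the 6 S8 libraries, with red points for ‘Nantaihutezao’, black points for ‘Summer Black’ and a line at each mean. The groups do not overlap in any of the 16 genes, from chitinase 5 at 14988 against 6199 CPM down to the GAST1-like gene at 3.82 against 26.8 CPM.

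Cell wall genes changed family by family. Xyloglucan endotransglucosylases (XTH), which cut and rejoin the xyloglucan that ties cellulose, were called mostly on the higher side, with a median log2FC of 0.67. Of 24 tested, 6 (25%) were higher and 1 (4.17%) lower, against 2.71% and 3.76% over all genes. Without replicate a of ‘Summer Black’, in which the family was low, 5 were higher, and over all refits without 1 library, 4 to 7 were. Tested against the threshold itself, 3 were higher. VIT_06s0061g00550 (XTH32-type) had 625, 602 and 606 CPM in ‘Nantaihutezao’ and 189, 293 and 283 CPM in ‘Summer Black’, a log2FC of 1.26 (SE 0.13, FDR 2.34e-05). VIT_02s0012g02220 had 143, 134 and 144 CPM in ‘Nantaihutezao’ and 31.1, 52.4 and 47.4 CPM in ‘Summer Black’, a log2FC of 1.68 (SE 0.14, FDR 4.98e-06). In both genes, replicate a was the lowest ‘Summer Black’ library, and no ‘Nantaihutezao’ library came near the ‘Summer Black’ range.

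Expansins, which loosen walls without cutting them, had 2 (18.2%) lower and none higher of 11 by edgeR or DESeq2. At an unadjusted p below 0.05, 1 was higher. VIT_14s0108g01020 (expansin A10) had 63.2, 61.4 and 66.8 CPM in ‘Nantaihutezao’ and 144, 141 and 141 CPM in ‘Summer Black’, a log2FC of -1.15 (SE 0.051, FDR 4.56e-08). Of 27 tested pectin-degrading enzymes, 5 (18.5%) were higher and 2 (7.41%) lower, against 2.71% and 3.76% over all genes. VIT_01s0011g01300 (polygalacturonase QRT3) had 12.5, 10.7 and 11.2 CPM in ‘Nantaihutezao’ and 1.03, 2.02 and 1.4 CPM in ‘Summer Black’, a log2FC of 2.94 (SE 0.2, FDR 1.07e-06). The pectinesterase VIT_07s0005g00730 had 33.6, 32 and 33.5 CPM in ‘Nantaihutezao’ and 82.7, 91.9 and 101 CPM in ‘Summer Black’, a log2FC of -1.47 (SE 0.075, FDR 1.24e-07), and the pectate lyase VIT_01s0137g00240 had 3.11 ± 1.05 CPM in ‘Nantaihutezao’ and 13.2 ± 2.44 CPM in ‘Summer Black’.

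In sugar metabolism, the shares of higher and of lower genes were both above those over all genes (2.71% and 3.76%). Of 116 tested genes of sucrose and starch metabolism, 5 (4.31%) were higher and 9 (7.76%) lower, and of 47 sugar transporters, 2 (4.26%) were higher and 4 (8.51%) lower. The list medians lay close to 0, at -0.02 and 0.04. Lists can share genes, and the sucrose and starch list had the same highest log2FC, 5.66, as the pectin-degrading enzymes. How many calls these lists share was not counted. The higher ones of the transporter list do not carry sugars by their annotation. VIT_19s0014g04790 is an organic cation/carnitine transporter, with 33.8 ± 1.38 CPM in ‘Nantaihutezao’ and 9.94 ± 0.242 CPM in ‘Summer Black’, and VIT_08s0007g01810 is an anion transporter. The lower ones included VIT_18s0076g00250 (sucrose transporter SUC2), which in Arabidopsis loads sucrose into the phloem, with 7.33, 8.8 and 8.45 CPM in ‘Nantaihutezao’ and 25, 27.5 and 27 CPM in ‘Summer Black’, a log2FC of -1.69 (SE 0.095, FDR 2.49e-07). VIT_05s0029g01140 (sucrose-phosphate synthase 3) rose, with 25.8 ± 1.84 CPM in ‘Nantaihutezao’ and 11.9 ± 0.775 CPM in ‘Summer Black’, a log2FC of 1.12 (SE 0.09, FDR 4.12e-06). VIT_18s0001g12840, a large subunit of the enzyme that makes ADP-glucose for starch, fell by 1.05 on the log2 scale, and by 0.97 without replicate a of ‘Nantaihutezao’.

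In glycolysis and its outlets, 3 of 96 genes were higher and 3 lower. That is 3.12% each way, about the shares over all genes (2.71% and 3.76%). VIT_07s0031g02630 (aldehyde dehydrogenase ALDH3I1) had 456, 479 and 462 CPM in ‘Nantaihutezao’ and 98.3, 110.2 and 112 CPM in ‘Summer Black’, a log2FC of 2.13 (SE 0.06, FDR 1.25e-09). The alcohol dehydrogenases named here fell. VIT_18s0001g15450 had 202, 194 and 208 CPM in ‘Nantaihutezao’ and 469.5, 418 and 411 CPM in ‘Summer Black’, a log2FC of -1.10 (SE 0.061, FDR 2.26e-07), and VIT_04s0044g01120 had 4.2 ± 1.17 CPM in ‘Nantaihutezao’ and 14.1 ± 0.414 CPM in ‘Summer Black’, a log2FC of -1.75 (SE 0.16, FDR 1.16e-05). In oxidative phosphorylation, 1 of 105 genes was higher and 1 lower. The lower one, VIT_19s0014g02730, a copper chaperone of cytochrome c oxidase, had 102, 114 and 103 CPM in ‘Nantaihutezao’ and 304, 313 and 314 CPM in ‘Summer Black’, a log2FC of -1.54 (SE 0.056, FDR 9.42e-09). The higher one, VIT_11s0052g00620 (plasma membrane ATPase), was under 1 CPM and was not called with DESeq2 (FDR 0.0615) or without replicate a or c of ‘Nantaihutezao’ or replicate c of ‘Summer Black’. Without replicate a of ‘Nantaihutezao’ or replicate b of ‘Summer Black’, 2 genes were lower.

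Hormone genes were called at about the rate of all genes, with 5 higher and 5 lower of the 146 tested genes of hormone signal transduction (3.42% each way). Ethylene is made by ACC oxidase, whose 2 called genes moved apart. VIT_12s0059g01380 (ACO3) had 294, 312 and 307 CPM in ‘Nantaihutezao’ and 145, 149 and 142 CPM in ‘Summer Black’, a log2FC of 1.07 (SE 0.049, FDR 6.04e-08), and VIT_11s0016g02380 (ACO1) had 1.63 ± 0.288 CPM in ‘Nantaihutezao’ and 5.11 ± 0.801 CPM in ‘Summer Black’, a log2FC of -1.65 (SE 0.21, FDR 0.000125). The auxin-induced gene VIT_05s0020g04680 (AUX22D) had 33.5, 34.3 and 36.3 CPM in ‘Nantaihutezao’ and 12.6, 9.43 and 10.4 CPM in ‘Summer Black’, a log2FC of 1.68 (SE 0.1, FDR 4.38e-07). VIT_12s0059g01870 (GH3.5), which ties auxin to amino acids, was at 3.15 ± 0.0787 CPM in ‘Nantaihutezao’ and 6.61 ± 1.12 CPM in ‘Summer Black’, with a log2FC of -1.07 that was -0.95 without replicate b of ‘Summer Black’. In abscisic acid synthesis and signalling, 1 of 35 genes was lower and none was higher by edgeR or DESeq2, although 17 were lower and 4 higher at an unadjusted p below 0.05, and 1 was called higher without replicate b of ‘Nantaihutezao’ or replicate c of ‘Summer Black’. The called gene, VIT_18s0041g02410, an aldehyde oxidase of the last step to abscisic acid, had 0.484 ± 0.209 CPM in ‘Nantaihutezao’ and 1.41 ± 0.252 CPM in ‘Summer Black’. Among 23 jasmonate genes, 3 (13%) were higher and 1 (4.35%) lower, against 2.71% and 3.76% over all genes. Lipoxygenases were on both sides. VIT_14s0128g00790 rose by 1.12 and VIT_05s0020g03170 fell by 1.54 on the log2 scale. The gibberellin gene VIT_18s0001g11320 (ent-kaurene oxidase, an early step of gibberellin synthesis) had 5.3, 4.87 and 5.86 CPM in ‘Nantaihutezao’ and 33.7, 32 and 32.2 CPM in ‘Summer Black’, a log2FC of -2.61 (SE 0.093, FDR 8.27e-09), with replicates that lay close together in both cultivars.

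Transcription factors were called on both sides. Over all genes, the shares were 2.71% higher and 3.76% lower. AP2/ERF factors, many of which answer to ethylene and stress, had 4 (6.15%) higher and 8 (12.3%) lower of 65. Without replicate b of ‘Nantaihutezao’, 5 were lower, and without replicate a of ‘Summer Black’, 3 were higher. MYB-type genes had 2 (1.74%) higher and 9 (7.83%) lower of 115, and 1 and 10 without replicate a of ‘Summer Black’. VIT_07s0031g01980 (ABR1, a repressor of abscisic acid responses in Arabidopsis) had 16, 17.8 and 23.8 CPM in ‘Nantaihutezao’ and 55.6, 54.9 and 58.2 CPM in ‘Summer Black’, a log2FC of -1.55 (SE 0.12, FDR 2.51e-06). VIT_01s0011g03070 (TEM-type repressor) had 5.04, 4.81 and 4.72 CPM in ‘Nantaihutezao’ and 15.8, 16.6 and 17.5 CPM in ‘Summer Black’, a log2FC of -1.77 (SE 0.11, FDR 3.91e-07). The second higher gene of the MYB list, VIT_11s0206g00060, is a response regulator of cytokinin signalling (ARR12), at 18.4 ± 1.19 CPM in ‘Nantaihutezao’ and 9.16 ± 1.66 CPM in ‘Summer Black’, which lost its call without replicate a of ‘Summer Black’ (0.86) or replicate c of ‘Nantaihutezao’ (0.95). The lower MYB genes with the most reads were VIT_14s0108g01080 (MYB39), with 10.1 ± 2.31 CPM in ‘Nantaihutezao’ and 24.6 ± 1.71 CPM in ‘Summer Black’, and VIT_07s0005g02480 (MYB86), with 2.26 ± 0.455 CPM in ‘Nantaihutezao’ and 7.18 ± 1.33 CPM in ‘Summer Black’. Of 40 tested WRKY factors, 3 (7.5%) were higher and none was lower by edgeR or DESeq2, with 8 lower at an unadjusted p below 0.05. Without replicate c of ‘Summer Black’, 5 were higher, and without its replicate a, 2 were. VIT_08s0058g00690 (WRKY33, a regulator of pathogen responses in Arabidopsis) had 22.9, 22 and 26.7 CPM in ‘Nantaihutezao’ and 10.1, 11.6 and 13.5 CPM in ‘Summer Black’, a log2FC of 1.03 (SE 0.12, FDR 5.28e-05), and its log2FC was 0.92 without replicate a of ‘Summer Black’ and 0.94 without replicate c of ‘Nantaihutezao’. Of 36 NAC factors, 2 (5.56%) were higher, VIT_00s0375g00040 (NAC25) and VIT_06s0004g00020. NAC25 had 10.5 ± 1.08 CPM in ‘Nantaihutezao’ and 1.38 ± 0.404 CPM in ‘Summer Black’. No NAC factor was lower by edgeR or DESeq2, with 11 lower at an unadjusted p below 0.05. Without replicate a of ‘Nantaihutezao’, 1 was called lower. Of 51 bHLH factors, 3 (5.88%) were higher and 4 (7.84%) lower. VIT_11s0016g02070 (bHLH041) had 2.89 ± 0.753 CPM in ‘Nantaihutezao’ and 0.259 ± 0.0513 CPM in ‘Summer Black’. The clock gene GIGANTEA (VIT_18s0157g00020) had 186, 178 and 164 CPM in ‘Nantaihutezao’ and 344, 359.8 and 366 CPM in ‘Summer Black’, a log2FC of -1.02 (SE 0.058, FDR 2.57e-07), and -0.97 without replicate c of ‘Nantaihutezao’.

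The called photosynthetic genes were all lower in ‘Nantaihutezao’. Of 15 tested antenna proteins, which bind chlorophyll and gather light, 3 (20%, against 3.76% over all genes) were lower and 14 had a log2FC below 0, with a median of -0.86. Without replicate c of ‘Nantaihutezao’, 5 were lower. Of 44 other photosynthesis genes, 3 (6.82%) were lower, with a median of -0.48. Without replicate b of ‘Nantaihutezao’, 1 was lower, and without replicate a of ‘Summer Black’, 2 were. None of either list was higher by edgeR or DESeq2, and at an unadjusted p below 0.05, 12 antenna genes were lower and none higher, and 24 photosynthesis genes were lower and 2 higher. VIT_10s0003g02890 (chlorophyll a-b binding protein) had 6.44, 3.88 and 5.65 CPM in ‘Nantaihutezao’ and 16.8, 14.4 and 19.4 CPM in ‘Summer Black’, a log2FC of -1.66 (SE 0.17, FDR 2.54e-05). Summed over the antenna list, the level was 270.8, 257.3 and 295 CPM in ‘Nantaihutezao’ and 468.7, 474 and 526.4 CPM in ‘Summer Black’, without overlap. VIT_04s0023g00410, a subunit of photosystem I, had 22.5 ± 0.232 CPM in ‘Nantaihutezao’ and 44.9 ± 1.59 CPM in ‘Summer Black’, a log2FC of -1 (SE 0.064, FDR 6.75e-07), which was -0.99 without replicate b of ‘Nantaihutezao’ and -0.98 without replicate c of ‘Summer Black’. In the carotenoid pathway, 4 of 25 genes (16%) were lower. VIT_04s0079g00680 (phytoene synthase, the first step of the pathway) had 3.53, 3.88 and 3.32 CPM in ‘Nantaihutezao’ and 12.9, 10.5 and 11.1 CPM in ‘Summer Black’, a log2FC of -1.68 (SE 0.14, FDR 4.88e-06), and VIT_02s0025g00240, a beta-carotene hydroxylase, had 1.28 ± 0.194 CPM in ‘Nantaihutezao’ and 3.33 ± 0.783 CPM in ‘Summer Black’.

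Glutathione S-transferases, which couple glutathione to many compounds, were called mostly on the lower side. Of 40 tested glutathione S-transferases, 8 (20%) were lower and 1 (2.5%) was higher, against 3.76% and 2.71% over all genes. VIT_04s0079g00710 (GST F11), of the class that carries anthocyanins to the vacuole, had 2175, 2337 and 2639 CPM in ‘Nantaihutezao’ and 5745, 4187 and 4452 CPM in ‘Summer Black’, a log2FC of -1.01 (SE 0.11, FDR 3.37e-05). Its log2FC was -0.86 without replicate a of ‘Summer Black’, the highest of the ‘Summer Black’ libraries, and -0.95 and -0.99 without replicates a and b of ‘Nantaihutezao’. VIT_06s0004g05700 (GST U8) had 189.6, 204 and 187 CPM in ‘Nantaihutezao’ and 380.4, 412 and 376 CPM in ‘Summer Black’, a log2FC of -1.01 (SE 0.057, FDR 2.49e-07), and -0.97 to -1 without replicate a or c of ‘Nantaihutezao’ or replicate b of ‘Summer Black’. The one that rose, VIT_07s0005g04890, had 8.35 ± 1.79 CPM in ‘Nantaihutezao’ and 1.54 ± 0.365 CPM in ‘Summer Black’, a log2FC of 2.44 (SE 0.22, FDR 1.03e-05). Without replicate a of ‘Nantaihutezao’, 5 glutathione S-transferases were lower, and without replicate a of ‘Summer Black’, 6 were. The ascorbate peroxidase VIT_08s0040g03150, which removes hydrogen peroxide and was chosen after its value was seen, had 18.2, 18.7 and 20 CPM in ‘Nantaihutezao’ and 63.4, 55 and 57.8 CPM in ‘Summer Black’, a log2FC of -1.63 (SE 0.076, FDR 6.04e-08).

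Of the smaller pathways with many lower genes, 3 genes are given that were likewise chosen after their values were seen. VIT_07s0031g00920 (inositol-3-phosphate synthase, the entry to inositol) had 443, 436 and 462 CPM in ‘Nantaihutezao’ and 897, 868 and 939.8 CPM in ‘Summer Black’, a log2FC of -1.01 (SE 0.051, FDR 1.23e-07). In nitrogen metabolism, VIT_08s0007g04800, annotated as a carbonic anhydrase, had 39.4 ± 0.748 CPM in ‘Nantaihutezao’ and 79.2 ± 3.68 CPM in ‘Summer Black’. In fatty acid degradation, VIT_03s0063g01880, a long-chain acyl-CoA synthetase, had 15.3, 13 and 15.5 CPM in ‘Nantaihutezao’ and 49.6, 36.4 and 33.9 CPM in ‘Summer Black’, a log2FC of -1.45 (SE 0.14, FDR 1.32e-05). Among chaperones, 2 of 24 small heat shock proteins and 1 of 12 larger ones were lower, which is 8.33% of each list against 3.76% over all genes. VIT_17s0000g07190 (ClpB1) had 84.5 ± 7.33 CPM in ‘Nantaihutezao’ and 171 ± 28.3 CPM in ‘Summer Black’, a log2FC of -1.02 that was -0.95 without replicate b of ‘Nantaihutezao’. Without replicate a of ‘Summer Black’, no gene of either list was called. The refit without replicate a of ‘Nantaihutezao’ left 1 small heat shock protein lower.

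The steepest falls among genes with at least 5 CPM in one cultivar were smaller than the steepest rises, between 6.10-fold and 10.2-fold. VIT_05s0029g00480, matched to shikimate O-hydroxycinnamoyltransferase, an enzyme of monolignol synthesis, had 0.728, 0.259 and 0.622 CPM in ‘Nantaihutezao’ and 7.33, 5.13 and 4.09 CPM in ‘Summer Black’, a log2FC of -3.35 (SE 0.34, FDR 2.2e-05). VIT_15s0046g00660 (WSD1, a wax ester synthase in Arabidopsis) had 5.04, 6.06 and 5.86 CPM in ‘Nantaihutezao’ and 53.1, 31.3 and 27.9 CPM in ‘Summer Black’, a log2FC of -2.73 (SE 0.23, FDR 5.57e-06). VIT_08s0007g05860, of the gibberellin-regulated GAST1 type, had 4, 3.42 and 4.04 CPM in ‘Nantaihutezao’ and 18.2, 30.3 and 31.7 CPM in ‘Summer Black’, a log2FC of -2.81 (SE 0.21, FDR 2.04e-06). In WSD1, replicate a was the highest ‘Summer Black’ library, and in GAST1 the lowest, but no ‘Nantaihutezao’ library came near the ‘Summer Black’ range in either. VIT_15s0107g00270 (MSL10, a channel opened by membrane tension) had 1.66, 2.33 and 2.23 CPM in ‘Nantaihutezao’ and 20.7, 12.8 and 9.95 CPM in ‘Summer Black’, and VIT_08s0007g00330 (metallothionein) had 5.3, 6.26 and 3.01 CPM in ‘Nantaihutezao’ and 11.8, 40 and 44.9 CPM in ‘Summer Black’. Metallothionein was the most uneven, with replicate a of ‘Summer Black’ far below the other two but still above every ‘Nantaihutezao’ library. The remaining ones were VIT_00s0218g00220 (UGT91A1), at -3.08, VIT_07s0005g06090, at -3.16, VIT_14s0219g00280 (glycerol-3-phosphate dehydrogenase), at -2.62, and VIT_07s0005g01670, a glycine-rich protein, at -2.75 on the log2 scale.

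Markers of tissues that a berry sample can hold had few calls, though their sums separated the cultivars. Of 11 seed storage and oil body genes, 4 had no count at S8 and 4 were tested, and none was called by edgeR or DESeq2, with 1 higher and 1 lower at an unadjusted p below 0.05. Their summed level was 16 to 19.2 CPM in ‘Nantaihutezao’ and 11.8 to 15.5 CPM in ‘Summer Black’. The genes with no count were the legumins VIT_07s0005g03400 and VIT_07s0005g03410, the 11S globulin VIT_12s0034g02000 and the oleosin VIT_17s0000g09000. The oleosin VIT_02s0234g00110 held most of the sum, with 13.8 ± 1.46 CPM in ‘Nantaihutezao’ and 8.03 ± 2.2 CPM in ‘Summer Black’, a log2FC of 0.78 (SE 0.18, FDR 0.00573). It was the only tested gene of the list with a log2FC above 0. The other 3 lay below 0, down to -1.01, and the list median was -0.32. Outside this list, VIT_18s0041g01880 (AGL11, a factor of ovule and seed identity) was called higher, with 11.2, 9.84 and 10.5 CPM in ‘Nantaihutezao’ and 3.1, 5.49 and 5.23 CPM in ‘Summer Black’, a log2FC of 1.19 (SE 0.19, FDR 0.000522), and 0.97 without replicate a of ‘Summer Black’. Of 20 phloem genes, 11 had no count and none of the 5 tested was called by edgeR or DESeq2, with 2 higher at an unadjusted p below 0.05, at summed levels of 46.7 to 50.1 CPM in ‘Nantaihutezao’ and 38.3 to 46.6 CPM in ‘Summer Black’. Of 31 tested pollen and anther genes, 1 was higher, and none without replicate a of ‘Summer Black’ or replicate c of ‘Nantaihutezao’, with sums of 2503 to 2577 CPM in ‘Nantaihutezao’ and 2648 to 2739 CPM in ‘Summer Black’. The coloured-skin list, carried by UFGT, summed to 540.7 to 583.7 CPM in ‘Nantaihutezao’ and 788.8 to 897.9 CPM in ‘Summer Black’. Of its 2 tested genes, UFGT had a log2FC of -0.58 and was not called. The other had 1.04 and was called higher, but not in every refit without 1 library. The part of tissue shares in the results above was not tested.

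Fewer genes were called at S8 than at any other stage except S9. Fitted stage by stage, 1190 genes were higher and 1368 lower at S5, 415 and 600 at S6, 535 and 701 at S7, 525 and 283 at S9, and 548 and 780 at S10. To ask where the cultivar difference at S8 itself departed from that of the other stages, all 36 libraries were fitted together and the S8 difference was set against the mean difference of the 5 other stages. Of 16846 genes, 667 (3.96%) had a difference further towards ‘Nantaihutezao’ at S8 and 1536 (9.12%) one further towards ‘Summer Black’, at an FDR below 0.05. The former made up 30.3% of these genes, and 41.6% (934 of 2243) with upper-quartile scaling. The count rested on S5 in large part. Without S5 in the mean, 327 and 580 genes passed, and leaving out any other stage gave between 2315 and 2975 in all. Against S7 alone, 448 (2.66%) genes were further towards ‘Nantaihutezao’ and 903 (5.36%) towards ‘Summer Black’, and against S9, 944 (5.6%) and 956 (5.67%).

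By gene list, stilbene synthases were further towards ‘Nantaihutezao’ at S8 than over the other stages in 14 of 29 genes and further towards ‘Summer Black’ in 1, and without S5 in 10 and none. Against S7, the balance was the other way, with 1 gene further towards ‘Nantaihutezao’ and 3 towards ‘Summer Black’, a median of -0.44, and 2 and 12 at an unadjusted p below 0.05. When replicate a of ‘Summer Black’ was left out, 1 was further towards each. Against S9, 6 were further towards ‘Nantaihutezao’ and none towards ‘Summer Black’, and at an unadjusted p below 0.05, 10 and none. F3'5'H was further towards ‘Summer Black’ in 6 of 8 genes, with a median contrast of -1.20, but without S5 in 3, with a median of -0.22. Against S7, 4 F3'5'H genes were further towards ‘Summer Black’, and against S9 none was (1 at an unadjusted p below 0.05), so the difference at S8 differed from that at S7 in these 4 genes and was not shown to differ from that at S9. Antenna proteins were further towards ‘Summer Black’ in 8 of 18 genes, with and without S5, and in 7 against S9, whereas against S7, 3 were further towards ‘Nantaihutezao’. The first of these counts was 5 without replicate b of ‘Nantaihutezao’, and the last was 1 without replicate c of ‘Nantaihutezao’. Small heat shock proteins were further towards ‘Summer Black’ than at S7 in 9 of 25 genes and further towards ‘Nantaihutezao’ in none, and in 6 without replicate a of ‘Summer Black’. Against S9, 1 was further towards ‘Nantaihutezao’ and none towards ‘Summer Black’ (2 at an unadjusted p below 0.05), with a median of -0.08. The proteasome, with no called gene at S8, was further towards ‘Nantaihutezao’ than at S9 in 13 of 44 genes and towards ‘Summer Black’ in none, with a median of 0.19, and in 8 without replicate b of ‘Nantaihutezao’ and 7 without replicate b of ‘Summer Black’. With DESeq2, small heat shock proteins against S7 and the proteasome against S9 gave 9 and 17 such genes and none the other way.

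The genes with the largest contrasts fell into different courses, given here as CPM scaled over all 36 libraries. Germacrene D synthase (VIT_19s0014g04930) had 18.5 ± 1.3 CPM in ‘Nantaihutezao’ and 50.6 ± 3.18 CPM in ‘Summer Black’ at S5, 119 ± 8.02 CPM in ‘Nantaihutezao’ and 6 ± 0.436 CPM in ‘Summer Black’ at S8 and 503 ± 66.3 CPM in ‘Nantaihutezao’ and 17.9 ± 1.4 CPM in ‘Summer Black’ at S10. Its log2FC went from -1.45 at S5 to 2.75 at S7, 4.31 at S8 and 6.63 at S9, so it began lower in ‘Nantaihutezao’ and S8 lay on the rise. GT5 (VIT_04s0023g01290) had 22.7 ± 2.21 CPM in ‘Nantaihutezao’ and 0.287 ± 0.0624 CPM in ‘Summer Black’ at S7, and 250.0 ± 6.31 CPM in ‘Nantaihutezao’ and 19.2 ± 0.759 CPM in ‘Summer Black’ at S10. VIT_14s0171g00100, a blue copper protein, had a log2FC of 3.49 at S8 and 1.41 at S10, when it reached 26.6 ± 2.33 CPM in ‘Nantaihutezao’ and 9.95 ± 0.3 CPM in ‘Summer Black’.

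In other genes, the difference turned from higher to lower in ‘Nantaihutezao’. GAST1 (VIT_08s0007g05860) went from 91.2 ± 4.97 CPM in ‘Nantaihutezao’ and 23.6 ± 2.85 CPM in ‘Summer Black’ at S5 to 0.357 ± 0.216 CPM in ‘Nantaihutezao’ and 1.54 ± 0.431 CPM in ‘Summer Black’ at S10, with the highest ‘Summer Black’ mean at S6, and its log2FC from 1.96 to -2.81 at S8. The Pru ar 1 relative (VIT_05s0077g01670) and the polyol transporter VIT_11s0016g03920 (PLT5) also changed sign, from 2.12 and 4.21 at S5 to -2.50 and -1.07 at S8. PLT5 was called lower at S8, but its log2FC was -0.98 without replicate c of ‘Summer Black’. In the last 2, a higher level in ‘Nantaihutezao’ narrowed. VIT_13s0106g00280 (CYP79A2, which turns phenylalanine into an oxime) had a log2FC of 1.91 at S7, 0.89 at S8 and 0.28 at S10. The cystinosin homolog VIT_14s0219g00130, a vacuolar cystine transporter, had 1.95 at S7 and 0.21 at S8, where its groups overlapped.

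**Figure D5:**
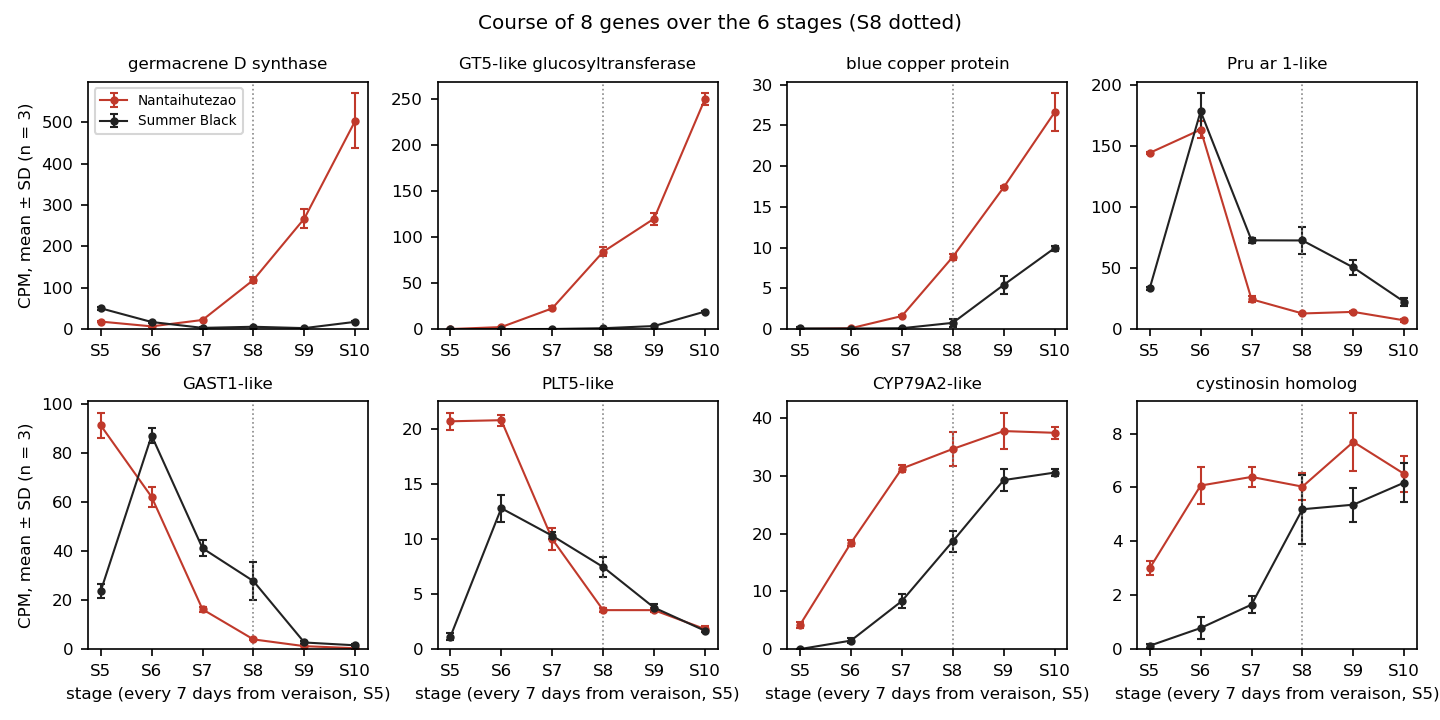
Mean CPM with SD (n = 3) at each of the 6 stages in ‘Nantaihutezao’ (red) and ‘Summer Black’ (black) for 8 genes, on linear axes from 0, with S8 dotted. Germacrene D synthase reached 119 CPM in ‘Nantaihutezao’ and 6 CPM in ‘Summer Black’ at S8, while the GAST1-like and PLT5-like genes had fallen below the parent's level, and the CYP79A2-like gene and the cystinosin homolog stood at 37.5 against 30.6 and 6.5 against 6.18 CPM at S10.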

How the data were processed

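RNA of berries was sequenced by the authors with TruSeq libraries on a HiSeq X-ten, and reads were mapped with TopHat2 to the Vitis vinifera genome. The build and the use of strand are not given in the sources used here. The counts are the authors' deposited reads per gene, with no normalization, and the FPKM values are theirs, from Cuffdiff. Columns of the authors' own comparisons hold fold changes and p-values and were not used.

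Counts of the 6 S8 libraries (18930991 to 19879707 each) were tested with edgeR 4.0.16 (limma 3.58.1, R 4.3.3): genes passing filterByExpr (minimum count 10, minimum total 15), TMM scaling, quasi-likelihood test of cultivar, Benjamini-Hochberg adjustment. Contrasts between stages came from 1 model of all 36 libraries and 12 groups. CPM use TMM library sizes. The script was tested on simulated data, which does not show how the contrasts between stages behave in these libraries. Gene lists (58) were built from the annotation columns (KEGG, Pfam, Swiss-Prot), and members and lists were chosen with earlier results of these data known. Annotation classes and pathways with at least 15 tested genes were counted.

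Named genes were, of called genes with at least 5 CPM in the higher cultivar and a Swiss-Prot or KEGG annotation, the 10 highest and 10 lowest fold changes; up to 2 called members per list and direction with the most reads; the 3 genes the study measured by qRT-PCR at S8; and the 5 highest and 5 lowest contrasts of S8 with the other stages. Enzyme genes beside called ones and those said to be chosen after their values were seen are additions. Intervals of fold changes (95%) use the t distribution of the test. The test was repeated with a replicate block, with glmTreat, without the filter, with upper-quartile scaling, within the fit of all 36 libraries, by DESeq2 1.42.0 and without each library, and each stage in turn, the last added after the data were seen. Replicate letters did not pair the libraries (correlations of same-letter deviations -0.073, -0.04 and -0.011).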

Additional observations from a re-analysis of the deposited data

Results flagged for a closer look

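The cultivar difference at S8 was tested against that of other stages in 1 edgeR model of all 36 libraries, and genes past an FDR of 0.05 differ between stages by a test of the difference itself. Against the mean of the 5 other stages, 2203 genes passed, against S7 1351 and against S9 1900. The first count was 907 when S5 was left out of the mean.

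The contrasts furthest towards ‘Nantaihutezao’ (log2, S8 minus the mean of the others) were those of VIT_05s0094g00740 at 6.81, a fitted value that depends on the prior count because ‘Summer Black’ had no count at S8, and VIT_09s0002g09270 at 3.32 (SE 1, FDR 0.0248). The latter was not past the threshold without replicate c of ‘Summer Black’ (2.79, FDR 0.0714), without S5 (2.25, FDR 0.278) or without S6 (2.66, FDR 0.104). The blue copper protein VIT_14s0171g00100 followed at 2.50 (SE 0.44, FDR 8.39e-05), then germacrene D synthase VIT_19s0014g04930 at 2.03 (SE 0.15, FDR 1.44e-12) and the glucosyltransferase VIT_04s0023g01290 at 2.03 (SE 0.41, FDR 0.000541). Of these 5 genes, 4 had under 1 CPM in both cultivars at S5.

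The contrasts furthest towards ‘Summer Black’ were those of VIT_13s0106g00280 (CYP79A2) at -2.21 (SE 0.17, FDR 2.12e-11), VIT_08s0007g05860 (GAST1) at -2.18 (SE 0.23, FDR 5.46e-09), VIT_11s0016g03920 (PLT5) at -2.05 (SE 0.14, FDR 3.91e-13), VIT_05s0077g01670 (Pru ar 1) at -1.89 (SE 0.12, FDR 3.73e-14) and VIT_14s0219g00130 (cystinosin homolog) at -1.79 (SE 0.22, FDR 1.77e-07). At S8 itself, CYP79A2 and the cystinosin homolog were not lower in ‘Nantaihutezao’. Dixon's test for a single outlying value was not run, as it is not used here for groups of 3 libraries.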

How the results depend on the processing

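Counts of higher and lower genes at S8 stayed within 1.5 times under DESeq2 (395 and 538), no filter (490 and 588) and all 36 libraries in one fit (539 and 708). Tested against the fold change threshold (glmTreat), they fell to 169 and 168. Leaving out each library gave 387 to 436 higher and 521 to 588 lower genes, and contrast counts of 1795 to 1974 (other stages), 1120 to 1291 (S7) and 1462 to 1977 (S9). Leaving S5 out of the mean of the other stages, an alternative added after the data were seen, gave 907 genes. The replicate letters did not pair the libraries, and the fit with a replicate block gave 404 and 547 genes and contrast counts of 2253, 1414 and 1970.

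Of 125 named genes called at S8, 29 lost the call without some library and 65 were called with glmTreat. In 768 values without 1 library, 68 fell short and none reversed. In 640 values under the other settings, 10 fell short and none reversed. Calls near the fold change threshold and genes of few reads are the least certain, replicate a of ‘Summer Black’ moves several lists, and with 3 libraries a group the spread is estimated across genes.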
